A study of Mus musculus with 15 samples.

Results

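The genes described are 10 of MHC class I assembly and peptide loading in the mouse, followed in the colon of B6 and Irf1-/- mice before and after exposure to a carcinogen and a colitis agent. They were taken by symbol as H2-K1, H2-D1, H2-T23, B2m, Tap1, Tap2, Tapbp, Tapbpl, Erap1 and Nlrc5. All 10 were present in each of the 3 deposited count tables, of 12897 genes listed in any of them. Loss of Irf1 went with lower Tapbp, Tap2 and Erap1 in the untreated colon, at 48.3%, 52.7% and 53.8% of the B6 level, while the other 7 members did not pass the test. In the treated colon Tapbp and Tap2 were lower in the mutants, both at 38.8% of the treated B6 level. No member passed the test for a response to treatment in either genotype.

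RNA-seq covered distal colons of 15 mice on the C57BL/6 background, with 3 biological replicates in each of 5 groups. The groups were wild-type B6 mice left untreated in a first and a second set (control set 1 and control set 2 below), untreated Irf1-/- mice, and B6 and Irf1-/- mice at day 26 of AOM/DSS treatment (D26). Treated mice had received 7 mg/kg of AOM, an alkylating colon carcinogen, on day 1 and 2% DSS, a polysaccharide that injures the colonic epithelium, in drinking water on days 8 to 11. The Irf1-/- mutation was carried by the whole animal, so no cell type can be singled out. The labels give neither sex nor age, and mice entered the tumor model of this study at 8 to 10 weeks of age. Whole tissue was used, so fewer cells of a type and less RNA per cell cannot be told apart in any value below.

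MHC class I molecules present short peptides from the cytosol to CD8 T cells and NK cells on the surface of nearly every nucleated cell. Peptides cut by the proteasome are pumped into the endoplasmic reticulum by the transporter TAP, a dimer of Tap1 and Tap2, and are trimmed there by the aminopeptidase Erap1. Tapasin (Tapbp) bridges TAP to an empty heavy chain and favours stable peptides, and its relative TAPBPR (Tapbpl) exchanges peptides without binding TAP. H2-K1 and H2-D1 encode the classical heavy chains of the B6 haplotype, H2-T23 encodes the non-classical heavy chain Qa-1, and B2m encodes the light chain shared by all of them. Nlrc5 is a transcriptional coactivator of class I genes. IRF1 is an interferon-induced transcription factor long known for its control of antigen presentation genes.

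The libraries were evenly deep, with 22266607 to 22869853 counts per library, and the counts of Irf1-/- untreated libraries were the same in both tables that hold them. Levels are given as CPM (counts scaled to the library total with TMM factors over the 15 libraries), with SD over 3 libraries. The targeted gene was checked first. Irf1 was at 161, 155 and 144 CPM in control set 1, 141, 128 and 130.5 CPM in control set 2 and 173, 223 and 227 CPM in B6 D26. It was at 79.4, 117 and 87.6 CPM in untreated Irf1-/- and 108, 123 and 99.97 CPM in Irf1-/- D26. No mutant library reached the lowest B6 one, yet reads were still counted on the gene in the mutants, and counts per gene do not show which exons they came from. Its log2 fold change between untreated genotypes was -0.49 ± 0.12 (SE) with an adjusted p of 0.128 in edgeR's quasi-likelihood test. Between treated genotypes it was -0.93 ± 0.13 (SE), adjusted p = 0.0117 in the same edgeR test. As markers of colon, all 10 epithelial genes and all 10 of smooth muscle and stroma were counted. Of 15 T and NK cell markers 12 were in none of the tables, Cd3e, Cd8a, Gzma and Ncr1 among them.

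Interferon regulatory factors act through sites in promoters, and promoter sequences are shown for Tapbp, Erap1, H2-K1, B2m and Tap1. RefSeq (GRCm38.p6) gave a window of 250 bases before to 50 bases after the start for 7 members. The promoter set used here held none for Tap2, Tapbpl and Nlrc5, so the called member Tap2 has no motif result. Matches on both strands are given for a pair of motifs. The first was GAAA, any 2 bases and GAAA again (the core of the interferon-stimulated response element). The other was AANNGAAA, a looser core that overlaps it. Capitals mark matches to either motif, on either strand, and each sequence runs 5′ to 3′ along the strand of its gene.
Tapbp, chr17:33919228-33919527, plus strand: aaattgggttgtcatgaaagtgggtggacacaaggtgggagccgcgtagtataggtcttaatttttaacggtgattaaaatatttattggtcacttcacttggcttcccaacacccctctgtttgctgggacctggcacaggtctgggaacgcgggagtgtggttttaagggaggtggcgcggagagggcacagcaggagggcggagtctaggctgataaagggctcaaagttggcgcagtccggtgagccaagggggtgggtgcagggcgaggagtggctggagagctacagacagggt
Erap1, chr13:74639603-74639902, plus strand: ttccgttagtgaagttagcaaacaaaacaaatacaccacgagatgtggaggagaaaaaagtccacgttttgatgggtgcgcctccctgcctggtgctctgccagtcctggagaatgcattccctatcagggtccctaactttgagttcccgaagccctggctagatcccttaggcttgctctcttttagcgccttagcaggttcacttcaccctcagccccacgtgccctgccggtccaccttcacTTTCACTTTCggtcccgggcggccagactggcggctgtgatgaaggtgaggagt
H2-K1, chr17:34000298-34000597, minus strand: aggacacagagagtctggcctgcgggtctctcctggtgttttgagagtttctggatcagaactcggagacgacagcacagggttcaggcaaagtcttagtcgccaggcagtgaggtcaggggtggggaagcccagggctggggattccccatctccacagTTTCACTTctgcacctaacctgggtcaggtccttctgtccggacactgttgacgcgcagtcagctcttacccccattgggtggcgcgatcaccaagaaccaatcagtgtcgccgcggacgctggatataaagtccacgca
B2m, chr2:122147437-122147736, plus strand: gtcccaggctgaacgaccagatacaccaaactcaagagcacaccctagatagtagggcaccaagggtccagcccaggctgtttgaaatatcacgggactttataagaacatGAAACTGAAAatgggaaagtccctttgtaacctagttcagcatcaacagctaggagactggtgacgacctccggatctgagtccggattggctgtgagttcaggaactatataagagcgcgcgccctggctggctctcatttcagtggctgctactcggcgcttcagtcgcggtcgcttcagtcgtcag
Tap1, chr17:34187306-34187605, plus strand: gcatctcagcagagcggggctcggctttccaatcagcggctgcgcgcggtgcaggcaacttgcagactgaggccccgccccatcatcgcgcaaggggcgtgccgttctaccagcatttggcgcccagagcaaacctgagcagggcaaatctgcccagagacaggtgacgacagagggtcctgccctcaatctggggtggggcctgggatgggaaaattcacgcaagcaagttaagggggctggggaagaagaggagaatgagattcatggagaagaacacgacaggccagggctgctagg

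The response element core was matched in the windows of Erap1, B2m and H2-T23, against 3.44% of all 32851 promoters in the table. In Erap1 the match began 4 bases before the RefSeq start from which the window was set. The gene models of Erap1, Tapbp and H2-D1 in the GENCODE annotation begin upstream of these windows, so that each window lies inside the annotated gene. AANNGAAA was matched in these 3 and in H2-K1 and H2-D1, against 23.9% of promoters. The windows of Tapbp and Tap1 held neither motif. Matches are descriptions of sequence and show no binding.

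On the GRCm38 annotation, 6 of the 10 members lie in the MHC region of chromosome 17 and the rest on chromosomes 2 (B2m), 6 (Tapbpl), 8 (Nlrc5) and 13 (Erap1). Compared per kb of exon (GENCODE M21 lengths), B2m and H2-K1 had the highest level in control set 1, at 234 ± 3.34 and 227 ± 5.04 CPM per kb. They were followed by H2-T23 (92.5 ± 4.31), Tapbp (61.2 ± 3.21) and H2-D1 (56.3 ± 0.604). Tapbpl was at 36.2 ± 2.25, Erap1 at 14.05 ± 0.657, Tap2 at 11.2 ± 1.60, Tap1 at 5.29 ± 1.07 and Nlrc5 at 1.37 ± 0.281 CPM per kb. No neighbours in this order overlapped in control set 1. The heavy chain H2-K1 and the light chain B2m were thus counted at the highest levels, and both TAP subunits far below them. In control set 2 H2-K1 (239.8 ± 5.90) stood above B2m (199 ± 15.004), and H2-D1 overlapped Tapbp. In untreated Irf1-/- Tapbp (29.3 ± 1.51 CPM per kb) stood below both H2-D1 (59.7 ± 4.77) and Tapbpl (33.9 ± 0.697). The libraries of Tap2 (5.55 ± 0.358) overlapped those of Tap1 (4.98 ± 1.42) there, as did those of H2-K1 and B2m. H2 heavy chains have near-identical relatives and 8 members overlap an annotated gene on the other strand, among them Tap1 with Psmb9. How reads shared by such genes were counted is not given in the sources used here, and levels of these genes are uncertain to that extent.

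**Figure D1:**
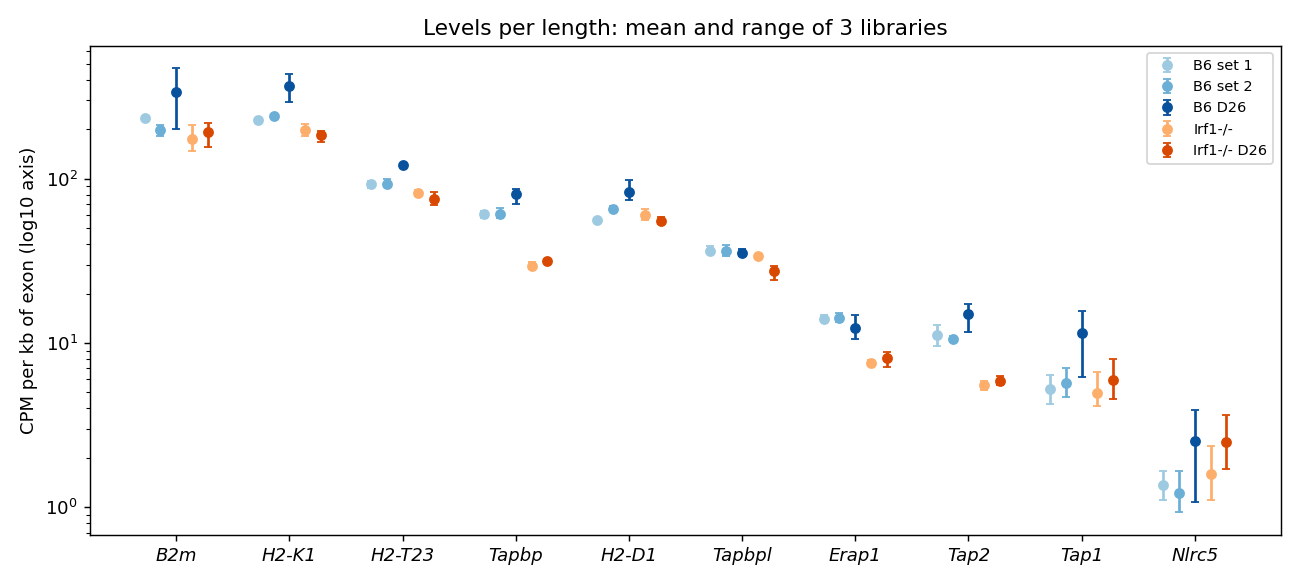
Mean level per kb of exon (points, log10 axis) with the range of 3 libraries (bars) for the 10 genes in each group. Levels run from 234 CPM per kb for B2m to 1.37 for Nlrc5 in control set 1, and the Irf1-/- points of Tapbp, Tap2 and Erap1 lie below all B6 points.

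The first comparison asked what loss of Irf1 does to these genes at steady state, with control set 2 as the B6 group. Tapasin and its TAP partner Tap2 were lower in the mutants, as was the trimming enzyme Erap1. Tapbp was at 239, 211 and 209 CPM in control set 2 and at 102, 112 and 104 CPM in untreated Irf1-/-. The highest mutant library was far below the lowest B6 library. Its log2 fold change was -1.05 ± 0.07 (SE), adjusted p = 0.000133 in edgeR's quasi-likelihood test. Tap2 was at 41.8, 38.3 and 39.5 CPM in the controls and at 21.3, 22.2 and 19.5 CPM in the mutants, again without overlap. Its log2 fold change in the same edgeR test was -0.92 ± 0.08 (SE), adjusted p = 0.000373. Erap1 was at 111, 101 and 97.2 CPM in the controls and at 52.6, 57.1 and 56.4 CPM in the mutants, and the groups did not overlap. The log2 fold change of Erap1 from edgeR was -0.90 ± 0.07 (SE), adjusted p = 0.000184. These 3 of 10 members were called lower (fold of at least 1.5 and adjusted p under 0.01), against 0.318% of the 12588 genes tested (40 genes), and none higher, against 0.0874%.

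The heavy and light chains differed less. H2-K1 was at 715, 684 and 714 CPM in control set 2 and at 538, 635 and 573 CPM in untreated Irf1-/-. All mutant libraries were below all control libraries, but the log2 fold change of -0.27 ± 0.08 (SE) did not pass the edgeR test (adjusted p = 0.208). H2-T23 was at 259 to 286 CPM in the controls and 228 to 247 CPM in the mutants (log2 fold change -0.18 ± 0.07), also without overlap. H2-D1 (-0.13 ± 0.07), B2m (-0.20 ± 0.12), Tap1 (-0.21 ± 0.19) and Tapbpl (-0.10 ± 0.07) overlapped between genotypes. Against control set 1 in place of set 2, the value of H2-D1 was 0.08. Of the TAP subunits, which work as a dimer, Tap2 was at -0.92 and Tap1 at -0.21, and the difference between them was not tested. With 1 library left out, Tap1 ran from -0.47 (without the second mutant library) to -0.03 (without the second control library). B2m ran from -0.38 without the second mutant library to -0.09 without the first. Tap1 libraries spread more, at 30.04, 38.8 and 25.6 CPM in the controls and 22.7, 36.3 and 22.9 CPM in the mutants. Nlrc5 was at 9.10, 14.2 and 7.90 CPM in the controls and 9.42, 20.02 and 11.3 CPM in the mutants, with a log2 fold change of 0.38 ± 0.29 that was -0.01 without the second mutant library. The median over the 10 members was -0.20 (-0.36 without the second mutant library and -0.13 without the first), and over all genes tested 0.002. Libraries did not overlap between these groups, mutants lower, for 5 members (H2-K1, H2-T23, Tap2, Tapbp and Erap1) and 7.58% of all genes.

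**Figure D2:**
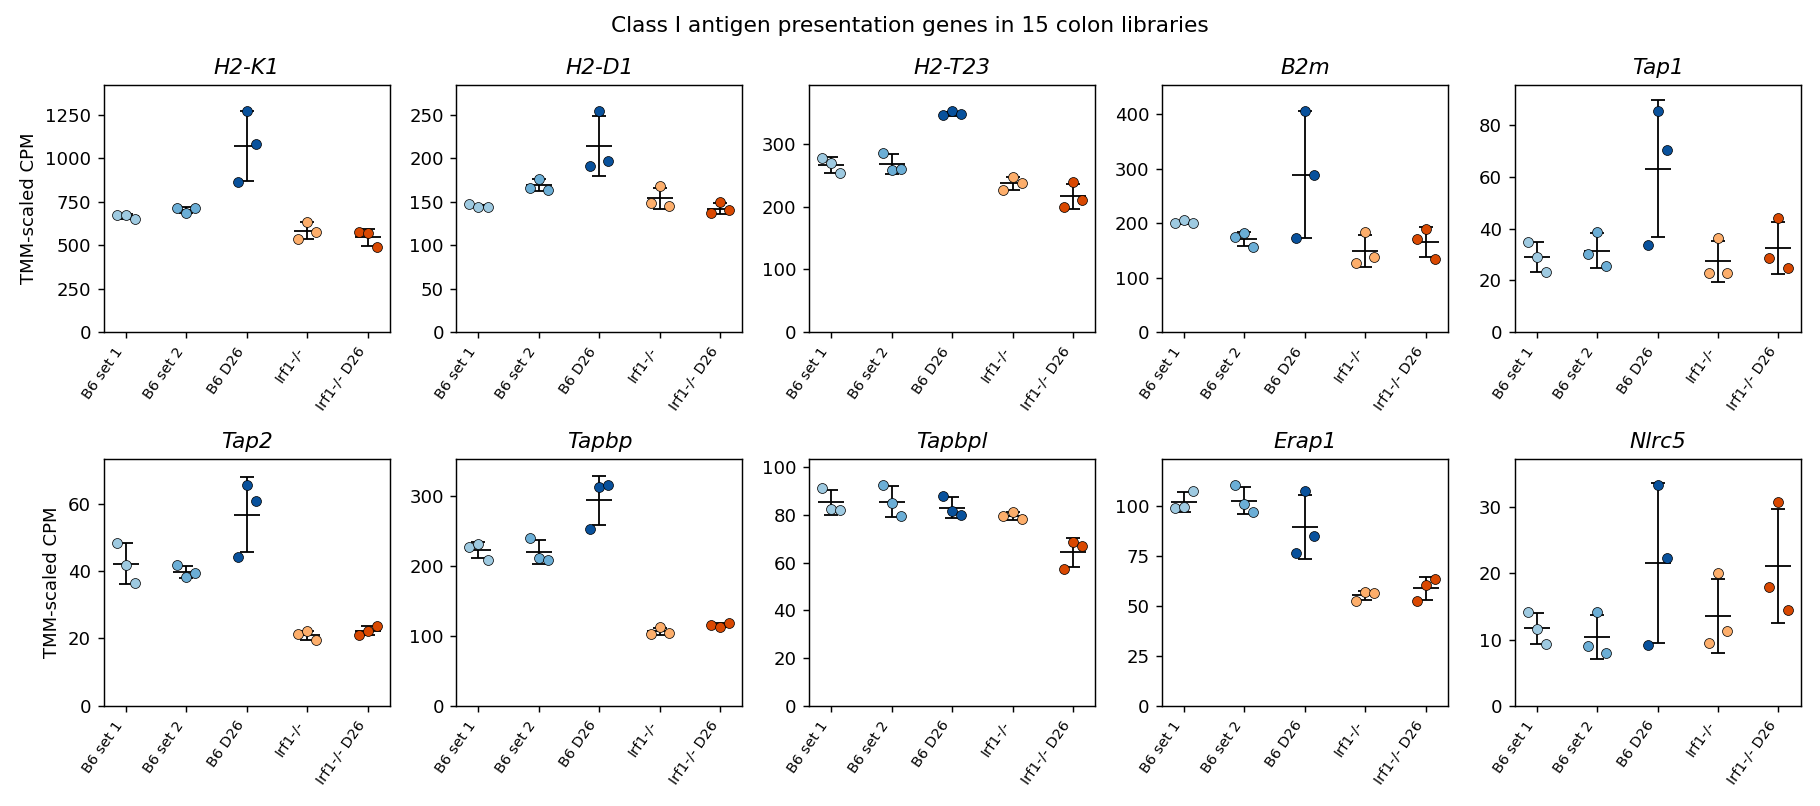
Level of each gene in every library (points, TMM-scaled CPM), with the mean (dash) and SD of 3 libraries (bars), for control set 1, control set 2, B6 D26, untreated Irf1-/- and Irf1-/- D26. Tapbp, Tap2 and Erap1 are lower in all 6 Irf1-/- libraries than in all 9 B6 libraries, and the B6 D26 libraries of Tap1, Nlrc5 and B2m are spread widely.

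Other genes of the pathway were followed as lists ordered by role. Among 10 genes of the proteasome and its activators, 4 were called lower in untreated Irf1-/- and none higher. They were Psmb10 (-1.61 ± 0.08) and Psmb8 (-1.76 ± 0.17), catalytic subunits of the immunoproteasome, and Psme1 (-0.69 ± 0.07) and Psme2 (-0.85 ± 0.06), which form its PA28 activator. The adjusted p of these 4 in edgeR's test ran from 1.99e-05 to 0.00109. Psmb10 was at 59.1, 58.4 and 60.4 CPM in control set 2 and 17.5, 20.8 and 19.7 CPM in the mutants. The list's median was -0.39. None of 13 class I heavy chains outside the members was called in either direction (median -0.11). The same was true of 7 cytosolic peptidases (-0.04), 17 chaperones and transport factors of the endoplasmic reticulum (-0.05) and 23 genes of the class I enhanceosome and interferon signalling (0.01). Summed markers of all leukocytes (5 genes, all counted) were 83.3 to 147 CPM in control set 2 and 134 to 168 CPM in the mutants. Those of B and plasma cells (7 of 9 listed symbols in all tables) were 391 to 435 and 478 to 615 CPM. Jchain was counted there under its older symbol Igj. The markers of B and plasma cells were higher in the mutants than in control set 2 without overlap. Endothelial markers (5 genes, all counted) summed to 109 to 114.7 and 115.4 to 119 CPM, also without overlap. In control set 1 the markers of B and plasma cells summed to 787 to 829 CPM, above the mutants without overlap. Against that set the log2 fold changes of Tapbp, Tap2 and Erap1 were -1.07, -1.01 and -0.89, and all 3 were called. The part of any of these cell types in the values of the members was not tested.

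The response of B6 mice to AOM/DSS was measured against control set 1. The heavy chain H2-K1 was at 676, 674 and 649 CPM in the controls and at 863, 1269.7 and 1080.0 CPM in B6 D26. Each treated library was above each control library. The log2 fold change was 0.69 ± 0.13 (SE), and its adjusted p of 0.0238 in edgeR's test did not reach the threshold of 0.01. Tap1 was at 34.8, 28.9 and 23.2 CPM untreated and at 33.9, 85.4 and 70.3 CPM at D26, so that the first treated library lay within the range of the controls and the other 2 far above it. Its log2 fold change was 1.13 ± 0.30 (SE), adjusted p = 0.0493 by edgeR. B2m (199, 205 and 200.3 CPM untreated, 172, 405 and 289 CPM at D26) and Nlrc5 (14.1, 11.5 and 9.36 and 9.18, 33.4 and 22.3 CPM) showed the same order of treated libraries. The first was lowest and the second highest in each case. Without the first treated library, H2-K1 (0.83) and Tap1 (1.44) were both called, at edgeR adjusted p of 0.00699 and 0.00516. This was the 1 call of each in 6 fits that left 1 library out. Over those fits H2-K1 ran down to 0.55 and Tap1 to 0.86, with edgeR adjusted p up to 0.0961 and 0.167. Without the second treated library, B2m moved from 0.53 to 0.20 and Nlrc5 from 0.90 to 0.44.

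None of the 10 members was called higher or lower by edgeR in B6 at D26, against 0.0316% and 0.0158% of the 12643 genes tested. DESeq2 called 1 higher (H2-K1), and its share over all genes is not given here. At an unadjusted p under 0.05 there were 7 of 10 members and 3730 of all genes. At an adjusted p under 0.05 with the same fold, H2-K1 and Tap1 passed, against 1.76% of genes. H2-D1 (144 to 147 CPM untreated, 191 to 254 CPM at D26), H2-T23 (254 to 278 and 347 to 353 CPM) and Tapbp (209 to 231 and 253 to 315 CPM) did not overlap either. Their log2 fold changes were 0.57 ± 0.11, 0.39 ± 0.08 and 0.41 ± 0.10. With H2-K1 this made 4 members without overlap, treated higher, against 16.3% of all genes. Tap2 (0.44 ± 0.16), Tapbpl (-0.03 ± 0.08) and Erap1 (-0.18 ± 0.12) overlapped. The median was 0.48 over the members and 0.012 over all genes. The B6 D26 libraries stood apart from the other 12 in how counts rose with the GC content of genes, with slopes of 0.136 to 0.285 log2 units per 10% GC against -0.124 to 0.0316. Exon GC was above 50% in 8 members, and 41.2% in B2m and 41.5% in Erap1. With each library corrected for GC, the values were 0.57 for H2-K1, 0.27 for Tap2, 0.24 for Tapbp and 0.76 for B2m, and that of Erap1 turned to 0.05. Xist, which female cells transcribe, was under 100 CPM in 2 B6 D26 libraries and 1 Irf1-/- D26 library and at least 321 CPM in the others, and with log2 Xist as a covariate (chosen after seeing the data) H2-K1 was at 0.65 and Tap1 at 1.13.

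Pathway lists gave no call in B6 at D26 in either direction by edgeR. The medians were 0.32 for the 14 other class I heavy chains, 0.26 for the 10 proteasome genes, 0.02 for the peptidases, 0.12 for the endoplasmic reticulum list and 0.01 for the enhanceosome and interferon list. Among the other heavy chains, H2-Q10, H2-Q5 and H2-Bl passed the same fold at an adjusted p under 0.05, with log2 fold changes of 0.92, 0.83 and 0.63, named after their values were seen. Of 12 listed symbols of myeloid and dendritic markers 8 were in all tables, without Batf3, Zbtb46 and Fcer1g. Adgre1 was listed under this and its older symbol Emr1, and only the latter was counted. Summed, these markers were 317 to 424 CPM in control set 1 and 422 to 580.4 CPM at D26. Summed leukocyte markers were 102 to 211 and 137 to 210.5 CPM. Summed endothelial markers were 114 to 128 CPM in control set 1 and 134 to 145 CPM at D26, higher without overlap. The part of these cell types in the values of the members was not tested.

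The same comparison in Irf1-/- mice set D26 against untreated mutants, and no member passed. H2-K1 was at 538, 635 and 573 CPM untreated and 575, 571 and 489 CPM at D26, and Tap1 at 22.7, 36.3 and 22.9 and 28.8, 43.99 and 24.9 CPM. Both overlapped between the groups, with log2 fold changes of -0.09 ± 0.09 and 0.26 ± 0.24 (SE). Without the second treated library the value of Tap1 was -0.02. Tapbp was at 102, 112 and 104 CPM untreated and 116, 112 and 118 CPM at D26 (0.12 ± 0.06). The values farthest from 0 were those of Nlrc5, at 9.42, 20.02 and 11.3 and 17.9, 30.8 and 14.5 CPM (0.64 ± 0.33), whose libraries overlapped, and of Tapbpl. The value of Nlrc5 was 0.26 without the second treated library and 1.03 without the second untreated one. Tapbpl, the tapasin relative, was at 79.5, 81.3 and 78.1 CPM untreated and 57.2, 68.8 and 66.8 CPM at D26, the 1 member without overlap between these groups, against 13% of all genes in that direction. Its log2 fold change was -0.31 ± 0.08 (SE), adjusted p = 0.0789 in edgeR's test. The remaining 5 members were H2-T23 (-0.13 ± 0.08), H2-D1 (-0.11 ± 0.08), Erap1 (0.09 ± 0.08), Tap2 (0.09 ± 0.09) and B2m (0.15 ± 0.16), and their groups overlapped. No member was called higher or lower by edgeR, against 0.205% and 0.0473% of the 12692 genes tested, and none by DESeq2, while 1 had an unadjusted p under 0.05 (2361 of all genes). The median of the members was 0.09, and 0.003 without the second treated library, against 0.007 over all genes. Among the pathway lists the 1 call was Socs3, an inhibitor of cytokine signalling, which rose from 8.58, 9.43 and 7.81 CPM to 23.8, 18.1 and 21.1 CPM. The log2 fold change of Socs3 was 1.29 ± 0.14 (SE), adjusted p = 0.00665 in edgeR's test. The medians were -0.11 for the other heavy chains, -0.10 for 9 proteasome genes, 0.03 for the peptidases, 0.11 for the endoplasmic reticulum list and 0.12 for the list that holds Socs3. Summed myeloid and dendritic markers were 294 to 359 CPM untreated and 433 to 486 CPM at D26, and summed leukocyte markers 134 to 168 and 189 to 228 CPM, both higher at D26 without overlap. Summed endothelial markers were 115 to 119 CPM untreated and 134 to 157 CPM at D26, also higher without overlap. Summed epithelial markers were 9788 to 10118 and 8554 to 9690.1 CPM, lower at D26 without overlap. Their part in the values of the members, Tapbpl among them, was not tested.

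Whether the responses differed was tested with the interaction of genotype and treatment, over 12483 genes. The heavy chains gave the smallest p. Their log2 differences, Irf1-/- minus B6, were -0.51 ± 0.11 (SE) for H2-T23, -0.68 ± 0.14 for H2-D1 and -0.78 ± 0.17 for H2-K1, with edgeR adjusted p of 0.0765, 0.077 and 0.0814. Tap1 was at -0.87 ± 0.43, B2m at -0.37 ± 0.33 and Nlrc5 at -0.25 ± 0.58, where the spread of libraries was wide. Tap2 (-0.34 ± 0.20), Tapbp (-0.29 ± 0.12) and Tapbpl (-0.27 ± 0.11) were lower by less, and Erap1 (0.27 ± 0.16) was the only member above 0. The B6 response of Erap1 that enters this difference was -0.18, and 0.05 with each library corrected for GC. No member was called by edgeR (0.016% of genes were called higher and 0% lower by edgeR). DESeq2 called H2-K1 and H2-D1 lower, and its share over all genes is not given here. At an unadjusted p under 0.05 there were 5 of 10 members and 2108 of all genes. The median was -0.36 over the members, with -0.57 without the first B6 D26 library and -0.54 without the second Irf1-/- D26 library, and 0.011 over all genes. With the GC correction the median of the members was -0.32. The sign of Nlrc5 turned without the second untreated Irf1-/- library (0.13) and without the second B6 D26 library (0.21). In the lists no gene was called, and the medians were -0.35 for the other heavy chains, -0.31 for the proteasome genes, -0.02 for the peptidases, -0.10 for the endoplasmic reticulum list and 0.12 for the enhanceosome and interferon list.

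**Figure D3:**
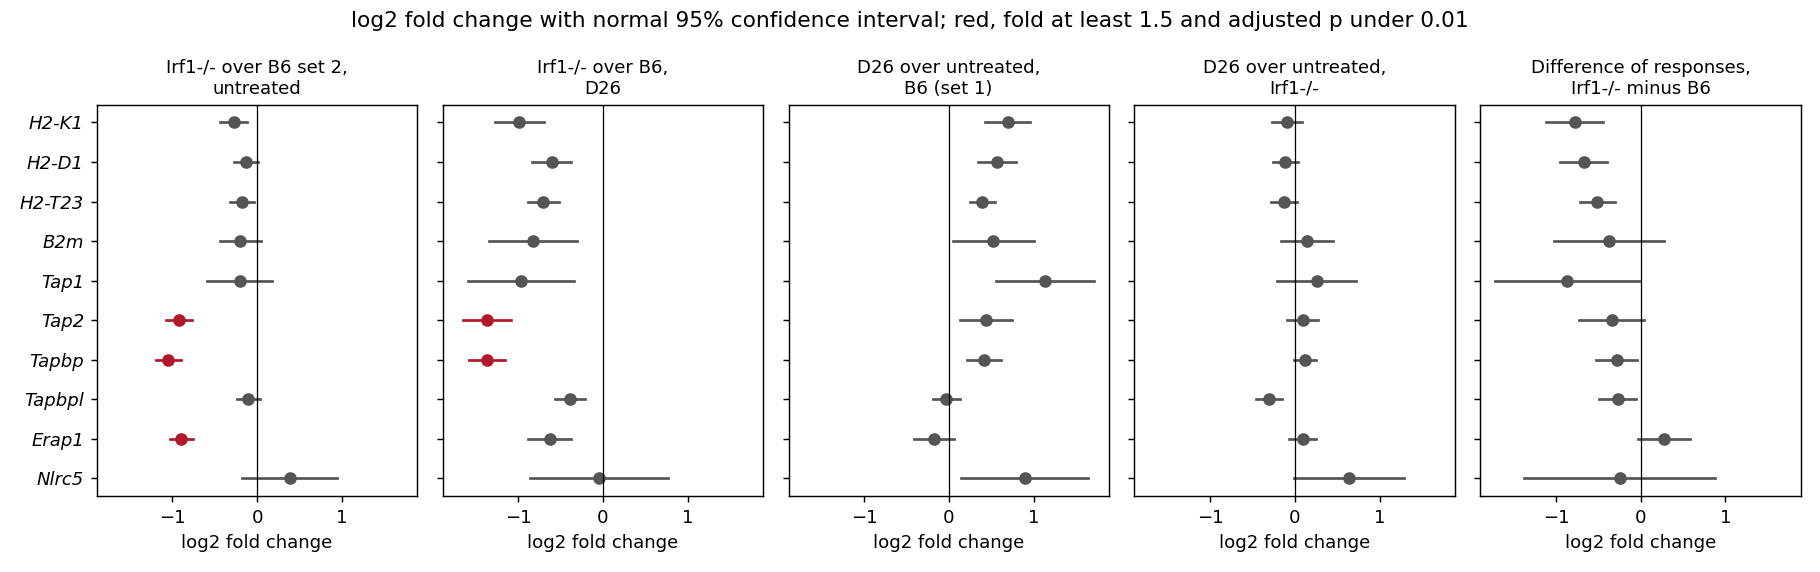
log2 fold change of each gene (points) with a normal 95% confidence interval (lines) in 5 comparisons, red where a fold of at least 1.5 and an adjusted p under 0.01 were reached. The intervals are narrower than edgeR's test implies, so a line clear of 0 need not have an unadjusted p under 0.05. For Tap1 in the difference of responses the interval ran from -1.72 to -0.02, with an unadjusted edgeR p of 0.0665. Tapbp and Tap2 are red in both comparisons of Irf1-/- with B6 and Erap1 in the untreated one, while the comparisons of D26 with untreated and the difference of responses hold no red point.

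Genotypes were last compared after treatment, with the same D26 libraries as above. Tapbp was at 253, 312 and 315 CPM in B6 D26 and 116, 112 and 118 CPM in Irf1-/- D26. The mutants were at less than 50% of every B6 library. Its log2 fold change was -1.37 ± 0.11 (SE), adjusted p = 0.000614 in edgeR's test. Tap2 was at 44.2, 65.6 and 60.7 CPM in B6 and 20.9, 22.3 and 23.7 CPM in the mutants, without overlap, and had -1.37 ± 0.14 (SE), adjusted p = 0.00313 in the same edgeR test. The call of Tap2 was lost without B6 D26 replicate 3 (adjusted p = 0.0213 by edgeR) and without Irf1-/- D26 replicate 1, 2 or 3 (0.0217, 0.0253 and 0.0144). These 2 of 10 members were called lower, against 0.312% of the 12483 genes tested, and none higher, against 0.0721%. At an adjusted p under 0.05 with the same fold there were 6 members lower, against 0.849% of genes.

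The 4 members added at that limit were H2-K1, H2-T23, H2-D1 and Erap1. H2-K1 was at 863, 1269.7 and 1080.0 CPM in B6 D26 and 575, 571 and 489 CPM in Irf1-/- D26, a log2 fold change of -0.99 ± 0.15 (SE), adjusted p = 0.0147 by edgeR. Without the first B6 D26 library it was called, at -1.12 and an edgeR adjusted p of 0.00592. This was its 1 call in 6 fits that left 1 library out. Over those fits the value of H2-K1 ran up to -0.85, with an edgeR adjusted p of up to 0.0773. H2-T23 was at 347, 353 and 348 and 200.5, 239 and 212 CPM, and the treated B6 libraries differed from each other by little. The log2 fold change of H2-T23 was -0.70 ± 0.10, with an edgeR adjusted p of 0.0106. H2-D1 was at 191 to 254 and 137 to 149.9 CPM (-0.61 ± 0.12). With each library corrected for GC, H2-D1 (-0.47) and H2-T23 (-0.58) did not reach the fold of 1.5, B2m was at -1.05 and Tapbpl at -0.28, and Tapbp and Tap2 (both -1.21) were still called by edgeR. Erap1, called in the untreated colon, was at 76.8, 108 and 85.02 and 52.4, 60.4 and 63.7 CPM, with a log2 fold change of -0.63 ± 0.13 and an edgeR adjusted p of 0.0479. Corrected for GC, the value of Erap1 was -0.83, with an edgeR adjusted p of 0.0193. Without this correction all 10 log2 fold changes were below 0, with B2m at -0.82 ± 0.27, Tap1 at -0.97 ± 0.32, Tapbpl at -0.39 ± 0.09 and Nlrc5 at -0.05 ± 0.42. The sign of Nlrc5 turned in 6 of the other settings, up to 0.41 without the second B6 D26 library. The median was -0.76 over the members and -0.008 over all genes, and 7 members did not overlap between the genotypes, mutants lower, against 13.1% of genes.

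Among 9 genes of the proteasome list, 4 were again called lower in the treated mutants, namely Psmb8 (-2.72 ± 0.27), Psmb10 (-2.30 ± 0.12), Psme2 (-1.39 ± 0.13) and Psme1 (-1.19 ± 0.11). Psmb8 was at 41.7, 88.99 and 78.3 CPM in B6 D26 and 12.4, 10.5 and 9.06 CPM in Irf1-/- D26. Psmb9, another immunoproteasome subunit, was not in the table of the treated mutants. Of 13 other class I heavy chains none was called, 6 were lower at an adjusted p under 0.05 with the same fold, and 12 had a value below 0 (median -0.66). No gene of the peptidase list (median 0.12), the endoplasmic reticulum list (0.04) or the enhanceosome and interferon list (0.00) was called. Summed epithelial markers were 10245 to 10720.5 CPM in B6 D26 and 8554 to 9690.1 CPM in Irf1-/- D26, lower in the mutants without overlap. Summed leukocyte markers were 137 to 210.5 and 189 to 228 CPM. The part of either in the values of the members was not tested.

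All 6 Irf1-/- libraries, treated or not, were below all 9 B6 libraries for H2-K1, H2-T23, Tap2, Tapbp and Erap1, against 0.873% of the 12370 genes in all tables (108 genes). The highest mutant and lowest B6 library were close for H2-K1 (635 and 649 CPM) and H2-T23 (247 and 254 CPM). They were farther apart for Tapbp (118 and 209 CPM), Tap2 (23.7 and 36.4 CPM) and Erap1 (63.7 and 76.8 CPM). Between the control sets no member was called by edgeR or DESeq2, against 0.0242% of 12417 genes higher and 0.0403% lower by edgeR, and 2 had an unadjusted p under 0.05 (2134 of all genes). These were H2-D1 (0.22 ± 0.07, set 2 minus set 1) and B2m (-0.23 ± 0.08). H2-K1 (0.08 ± 0.08) and H2-D1 were higher in set 2 without overlap, against 10.3% of all genes, and B2m was lower without overlap, against 11% of genes. These 3 members thus did not overlap between groups that share genotype and treatment. Of the members called in untreated Irf1-/-, Tap2 was at -0.08 ± 0.10, Tapbp at -0.01 ± 0.08 and Erap1 at 0.01 ± 0.08 between the control sets. H2-T23 (0.01 ± 0.08), Tapbpl (0.01 ± 0.08), Tap1 (0.12 ± 0.17) and Nlrc5 (-0.17 ± 0.23) made up the rest.

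Members differed in how they varied among libraries of the same group. Deviations of log2 CPM from the group mean over the 15 libraries gave Pearson's r of 0.99 (Spearman's rho 0.98) for Tap1 with Nlrc5. The r was 0.98 without the 2 libraries farthest from the median of Tap1. The order of the 3 libraries was the same for both genes in 5 of 5 groups. B2m followed Tap1 with r = 0.89 (0.82 without the 2 farthest libraries), with the same order of libraries in 4 of 5 groups. H2-K1 followed B2m with r = 0.96 (0.85 without the 2 farthest libraries), with the same order in 2 of 5 groups. Tapbp with Tap2 gave r = 0.82 (0.72 without the 2 farthest libraries), with the same order of libraries in 0 of 5 groups. Tap1 with Tap2 gave r = 0.71 (0.43 without the 2 farthest libraries), with the same order in 2 of 5 groups. Differences between these r values were not tested. These values are descriptions over libraries that share their depth and preparation.

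**Figure D4:**
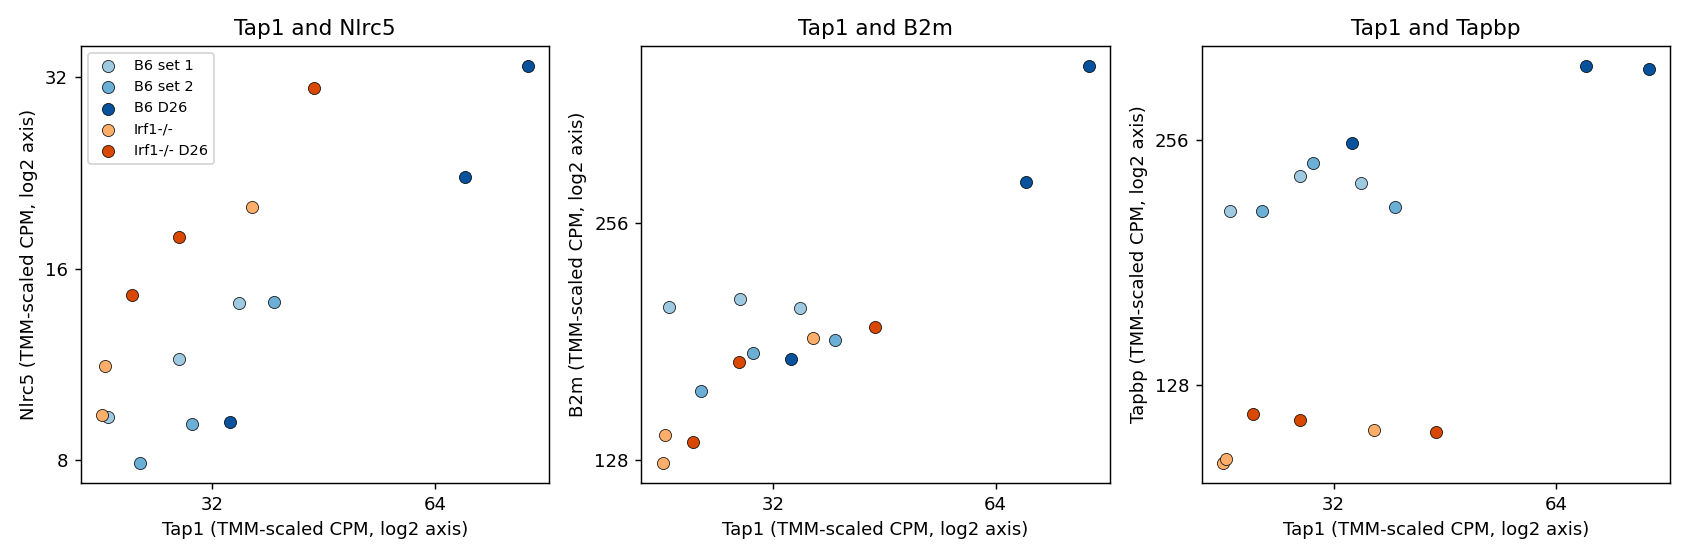
Tap1 against Nlrc5, B2m and Tapbp in each of the 15 libraries (TMM-scaled CPM, log2 axes), coloured by group. Tap1 and Nlrc5 rise together within every group, while Tapbp separates the 6 Irf1-/- libraries (102 to 118 CPM) from the 9 B6 libraries (209 to 315 CPM). No Irf1-/- library is above 43.99 CPM of Tap1, so the B6 D26 libraries at 70.3 and 85.4 CPM have no mutant at their level.

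The mean of the 10 z-scored members was compared with every other gene in all tables over the 15 libraries. The 5 genes most like it were Irgm2 (Pearson's r = 0.972), Gm8909 (0.963), H2-Q2 (0.957), Irgm1 (0.949) and Gm7030 (0.944). Irgm1 and Irgm2 are interferon-inducible GTPases, and H2-Q2 is a class I heavy chain of the Q region. Irgm2 was at 52.6 ± 1.20 CPM in control set 1, 51.0 ± 5.53 CPM in control set 2 and 74.9 ± 15.4 CPM in B6 D26. It was at 39.5 ± 3.17 CPM in untreated Irf1-/- and 42.3 ± 7.16 CPM in Irf1-/- D26. Among the members themselves, H2-K1 was closest to the mean of the other 9 (r = 0.940) and Nlrc5 farthest from it (r = 0.239).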

How the data were processed

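RNA was extracted from distal colon, depleted of rRNA and sequenced as 50 bp pairs from stranded libraries. Unnormalized counts of reads on each gene were deposited by the authors, for genes with at least 5 CPM in 3 or more libraries of a table. The submitters' processing notes name TopHat2 2.0.9, Bowtie 1.0.0, featureCounts, edgeR and build mm9, with no roles, and the strand setting of the counting is not given in the sources used here. The 36 deposited per-sample CPM columns were not used, nor were the authors' fold changes and p-values. Totals were 22266607 to 22869853 counts per library.

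Counts were scaled with TMM and tested with the quasi-likelihood test of edgeR 4.0.16 (R 4.3.3) over all genes common to the tables of a comparison, with Benjamini-Hochberg adjustment. Called genes had a fold of at least 1.5 and an adjusted p under 0.01. P-values rest on 3 libraries per group, with the spread estimated over all libraries of a fit and shared in part across genes. Errors beside log2 fold changes are standard errors. Treated genotypes and the interaction join counts from different tables.

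All 10 members are named in each comparison. A further promoter motif that was searched is not reported here. Of each pathway list, called genes were named (at most 4 with the smallest p), and so were the 5 genes most like the members by Pearson's r. The members and lists were chosen with earlier results of these data known. Alternatives were RLE factors, DESeq2 1.42.0, a filter of 10 CPM, all 15 libraries in 1 fit, the replicate block, an adjusted p under 0.05, a lowess GC correction (span 0.3) alone or with the block, other control sets, each library left out and, added after seeing the data, log2 Xist as a covariate. Exon lengths and GC came from GENCODE M21 (GRCm38), promoters from RefSeq (GRCm38.p6), and no mm9 coordinates are given. Correlations and figures used Python 3.11.15, pandas 2.3.3, scipy 1.17.1 and matplotlib 3.10.9.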

Additional observations from a re-analysis of the deposited data

How the results depend on the processing

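The 3 calls in untreated Irf1-/- held under each of the 16 other settings, and no called member changed sign under any. Uncalled values crossed 0 in 33 places, 19 of them between the control sets. The other values moved in 2 comparisons and the interaction. In B6 at D26, members called higher (0 by edgeR) were 1 with DESeq2, 1 with all 15 libraries in 1 fit, 1 with both control sets, 2 at an adjusted p under 0.05 and 0 to 2 with a library left out. The interaction gave 2 lower with DESeq2. Between treated genotypes, members called lower (2) were 6 with DESeq2, 6 with all 15 libraries in 1 fit, 6 at an adjusted p under 0.05 and 1 to 3 with a library left out. The cause of these shifts was not tested. At an adjusted p under 0.05 the shares of all genes were 1.76% higher in B6 at D26 and 0.849% lower between treated genotypes. For the other settings the share of all genes called is not given here, so their counts cannot be read as particular to the members. With the replicate number as a block there were 0 between treated genotypes, and 0 with the block and GC correction together. Tapbp was then at -1.36 (edgeR adjusted p = 0.0114) and Tap2 at -1.35 (0.0122). The numbers were not taken to pair the mice, since correlations of deviations between libraries with the same number ran from -0.25 to 0.248 over the pairs of groups checked. For the treated genotypes their mean was -0.0626, against 0.0321 for unlike numbers, so libraries did not all correlate best with their own number. The block changed no other count of members called. Log2 Xist as a covariate changed none. The median of all genes stayed within 0.05 log2 units of 0 in each setting. Among the members counts were lowest for Nlrc5, with 177 to 749 counts per library.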
